A study of Arabidopsis thaliana with 28 samples.

Results

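Light-harvesting and photosystem genes of the nucleus were followed in dark-grown Arabidopsis seedlings given the hormone abscisic acid (ABA). The set holds 45 genes, named by locus, out of 18310 in the deposited expression table: 14 LHCB, 6 LHCA, 4 RBCS, 12 PSA and 9 PSB genes. All 45 were in the table. The samples were whole seedlings of the Col-0 accession, the standard laboratory strain, grown for 3 days in the dark in hydroponics. They then received 10 µM ABA, or ethanol alone as mock, and were collected after 1, 4, 8, 12, 24, 36 and 60 h, with 2 libraries for each treatment and time, 28 in all. All samples are labelled as dark, and ABA and mock seedlings shared genotype and age; they differed in the hormone.

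Oxygenic photosynthesis in plants runs on photosystem II and photosystem I, which sit in the thylakoid membrane and are fed with light energy by chlorophyll-binding antenna proteins. The reaction-centre cores are encoded in the plastid, while the antenna proteins, many peripheral subunits and the small subunit of the carbon-fixing enzyme Rubisco are encoded in the nucleus and imported. Light raises the transcripts of these nuclear genes strongly, and seedlings kept in the dark hold their plastids as etioplasts without assembled photosystems. ABA is the hormone of seed dormancy and of the response to water deficit.

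Values are RPKM, read counts scaled to gene length and to the reads of the library, as the authors deposited them; RPKM can be compared between genes because it is per length. Differences between groups were tested on log2(RPKM + 1) with limma, a linear model whose error is moderated across all 18310 genes, with Benjamini-Hochberg adjustment over all of them and a threshold of 0.05. A fold on this scale understates the change of low genes. Libraries held between 16265926 and 26604530 reads assigned to genes, recovered from the RPKM steps, and the member with the fewest reads in any library, RBCS1B, still had 34 there. In whole seedlings, fewer cells that express a gene and less of its RNA in each such cell cannot be told apart. The labels do not say whether the 2 libraries of a group came from separate cultures, so a p-value here measures the spread between these libraries. As a check of the treatment, the 4 listed ABA-response genes (RD29B, RAB18, HAI1 and ABI1) summed to between 2828 and 15815 RPKM in ABA libraries from 4 h on, against 161 to 683 RPKM in mock libraries of those times.

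The genes of the photosynthetic apparatus were abundant in the dark and fell steeply with time in both treatments. At 1, 4, 8, 12, 24, 36 and 60 h the 45 genes together took 5.46 ± 1.38, 5.12 ± 0.672, 5.85 ± 1.54, 5.29 ± 0.163, 2.42 ± 0.318, 1.59 ± 0.134 and 1.1 ± 0.12% of the assigned reads in ABA seedlings (mean ± SD, n = 2). In mock seedlings at the same times they took 6.18 ± 0.332, 6.51 ± 0.283, 5.69 ± 0.601, 5.47 ± 0.332, 3.13 ± 0.502, 2.21 ± 0.488 and 1.47 ± 0.0707%. The share was near its early level up to 12 h and from 24 h on lower in every library than in any earlier one. At 60 h against 1 h, 44 of 45 genes passed the test as lower in ABA seedlings, where 32% of all genes were called lower and 31.9% higher, and 41 of 45 in mock seedlings, where 31.1% were called lower and 30.3% higher. The median log2 change of the 45 genes was -2.23 in ABA seedlings and -2.06 in mock seedlings, beside 0.02 and 0.01 over all genes. Every member's 60 h libraries lay below its 1 h libraries in both treatments. How many of all genes had groups standing apart in this way was not counted, so that separation does not set the members apart. Without any 1 of the 28 libraries, between 41 and 45 genes passed with ABA and between 38 and 42 in mock. With the replicate number as a further term 45 passed with ABA, where 34.9% of all genes were called lower and 36.1% higher, and 43 in mock, where 34.3% were called in each direction.

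**Figure D1:**
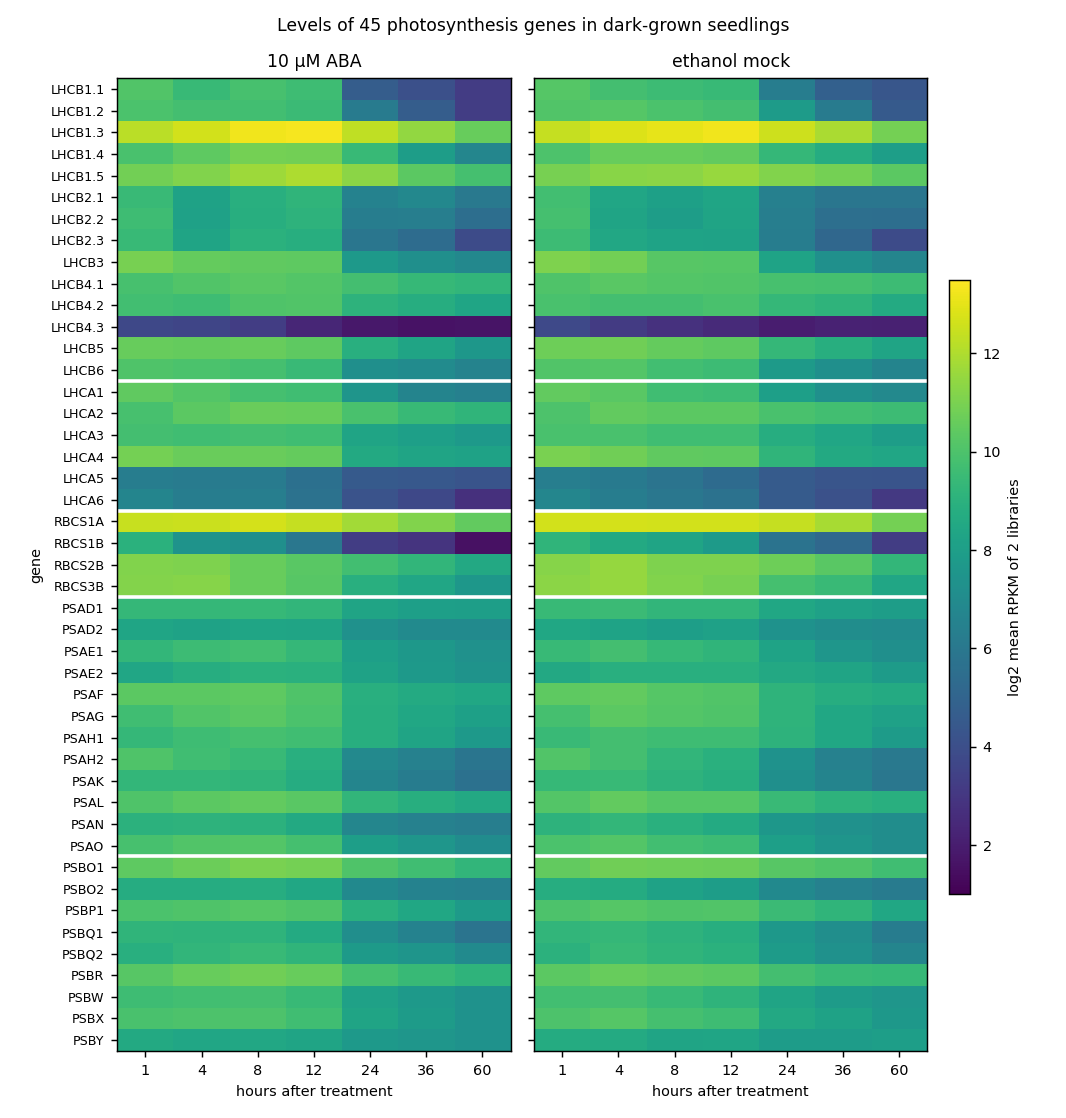
Levels of the 45 genes as log2 of the mean RPKM of the 2 libraries (color), with ABA seedlings left and mock seedlings right, hours after treatment along the horizontal axis and genes down the page, white lines parting LHCB, LHCA, RBCS, PSA and PSB genes. LHCB1.3 and RBCS1A are the brightest rows, and nearly all rows darken between 12 h and 24 h.

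The time of the highest level differed between the treatments. In ABA seedlings the group mean was highest at 1 h for 18 genes, at 4 h for 4, at 8 h for 20 and at 12 h for 3. In mock seedlings it was highest at 1 h for 15 genes, at 4 h for 26 and at 12 h for 4. These counts rest on means of 2 libraries and were not tested. The libraries of a group shifted the members together: in ABA seedlings at 8 h all 45 genes were higher in replicate 1 than in replicate 2, by a median log2 ratio of 0.59, and at 1 h only 1 of 45 was, with a median of -0.52.

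Genes known to answer to light also fell in sum between 1 h and 60 h, but mostly earlier than the photosynthesis genes' summed share of reads. ELIP1, an early light-induced protein of the thylakoid, had 443 and 305 RPKM in ABA libraries and 437 and 349 RPKM in mock libraries at 1 h. By 60 h it had 3.35 and 2.56 RPKM with ABA and 3.2 and 0.564 RPKM in mock. The 5 measured genes of the 6 listed as light markers (ELIP1, ELIP2, CHS, HY5 and RPT2) summed to between 816 and 1187 RPKM at 1 h with ABA and between 990 and 1151 RPKM in mock. At 4 h the same sum was between 181 and 202 RPKM with ABA and between 190 and 196 RPKM in mock. At 60 h against 1 h 4 of the 5 passed as lower in each treatment, where 32% of all genes did with ABA and 31.1% in mock. Their drop came mostly between 1 h and 4 h, and that of the photosynthesis genes' summed share of reads mostly after 12 h. Some members fell early too. From 1 h to 4 h the mock mean fell from 838 to 340 RPKM for LHCB2.1 and from 908 to 318 RPKM for LHCB2.2. LHCB2.3 fell from 763 to 357 RPKM in mock. With ABA these means fell from 716 to 295, 789 to 287 and 685 to 320 RPKM. Other members peaked later, in mock 26 at 4 h and 4 at 12 h. With ABA 4 peaked at 4 h, 20 at 8 h and 3 at 12 h. The part of light exposure in the result was not tested.

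Not all antenna genes fell alike. LHCB1.3 (AT1G29930), a gene of the major trimeric antenna of photosystem II and the most abundant member with a mean of 5929 RPKM over the 28 libraries, climbed until 12 h. It had 3232 and 6105 RPKM at 1 h and 9754 and 10690 RPKM at 12 h in ABA libraries, and 4626 and 6211 RPKM at 1 h and 8935 and 10134 RPKM at 12 h in mock libraries. At 60 h it was at 1520 and 1561 RPKM with ABA and at 1607 and 2217 RPKM in mock. Its neighbors LHCB1.1 (AT1G29920) and LHCB1.2 (AT1G29910), which encode proteins of the same antenna, took another course. LHCB1.1 stood at 15.5 and 3.26 RPKM at 60 h against 804 and 1422 RPKM at 1 h in ABA seedlings, a log2 change of -6.99 ± 0.86 (SE; adjusted p = 2e-06). In mock seedlings it stood at 34.8 and 6.48 RPKM at 60 h against 1148 and 1242 RPKM at 1 h, a log2 change of -6.19 ± 0.86 (adjusted p = 8.93e-06). LHCB1.3 changed by -1.53 ± 0.37 with ABA and -1.51 ± 0.37 in mock over the same interval.

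The makeup of the LHCB1 family shifted accordingly. LHCB1.1 and LHCB1.2 made up 22.2 ± 0.849% of the summed RPKM of the 5 LHCB1 genes at 1 h in ABA seedlings, 8.67 ± 3.44% at 12 h and 0.853 ± 0.845% at 60 h (SD, n = 2). In mock seedlings they made up 21.7 ± 2.69%, 10 ± 3.93% and 1.38 ± 1.01% at those times. LHCB1.1, LHCB1.2 and LHCB1.3 lie side by side on chromosome 1 (chr1:10472280-10479114, RefSeq annotation of TAIR10.1), and LHCB1.4 and LHCB1.5 lie on chromosome 2. Between 10.6 and 20.5% of the 50-base windows of these 5 transcripts occur in another of them, so reads could be placed on the wrong copy where the authors' counting allowed it, and their separate levels are less certain than their sum.

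Other antenna genes also kept different shares of their early level. LHCB4.1, which encodes the minor antenna protein CP29, changed little: its log2 change between 60 h and 1 h was -0.65 ± 0.3 with ABA (adjusted p = 0.0651) and -0.47 ± 0.3 in mock (adjusted p = 0.178), and it was the only gene not called with ABA. In mock seedlings LHCB1.5, LHCA2 and PSBY also missed the threshold. LHCB2.3, of the major antenna, changed by -5.68 ± 0.66 with ABA and -5.91 ± 0.66 in mock, and LHCB3, the third major antenna protein, by -4.11 ± 0.37 and -4.39 ± 0.37. LHCB4.3, a low-level CP29 relative, had 2.81 and 3.48 RPKM at 60 h against 14 and 12.1 RPKM at 1 h with ABA, and 4.36 and 4.52 RPKM against 15.5 and 11.8 RPKM in mock. It was the lowest member of the set, with a mean of 6.99 RPKM over all libraries.

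Among the photosystem I antenna genes, LHCA4, the most abundant of them, and LHCA1, which encodes its partner in the inner antenna belt, fell with time in both treatments. LHCA4 had 194 and 398 RPKM at 60 h against 1538 and 2191 RPKM at 1 h with ABA, and 275 and 401 RPKM against 1881 and 2130 RPKM in mock. LHCA1 changed by -4.02 ± 0.37 with ABA and -3.57 ± 0.37 in mock on the log2 scale. LHCA2, also a photosystem I antenna gene, changed least, by -0.66 ± 0.23 (adjusted p = 0.0185) and -0.41 ± 0.23 (adjusted p = 0.132). LHCA5 and LHCA6, which encode linkers between photosystem I and the NDH complex of cyclic electron flow, were low throughout, with means of 46.6 and 50.3 RPKM over the 28 libraries. LHCA6 fell to 6.42 and 7.07 RPKM at 60 h with ABA, against 84.1 and 122 RPKM at 1 h, and to 9.15 and 7.65 RPKM in mock, against 103 and 112 RPKM.

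**Figure D2:**
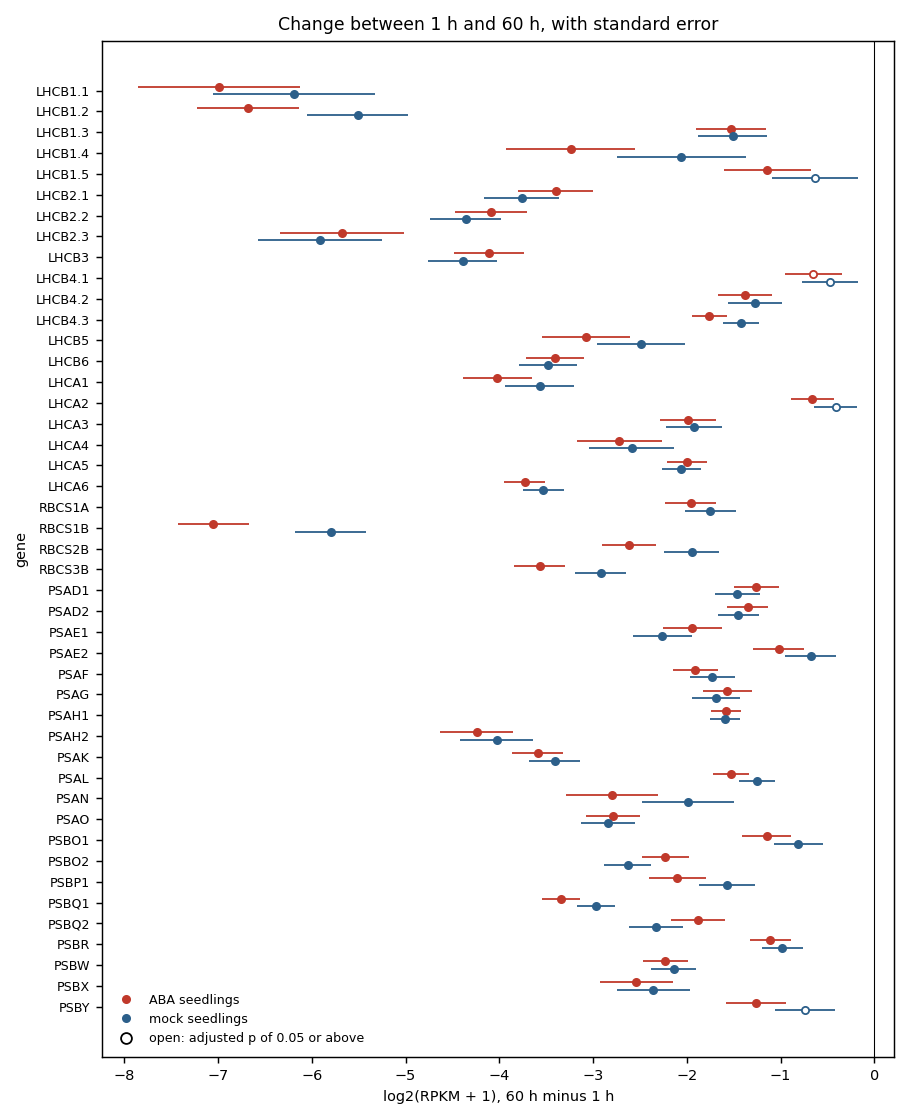
Change in log2(RPKM + 1) between 60 h and 1 h for each of the 45 genes (dots) with its standard error (bars), ABA seedlings in red and mock seedlings in blue, with open dots for an adjusted p of 0.05 or above. All dots lie below 0, from -7.05 for RBCS1B with ABA to -0.41 for LHCA2 in mock.

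Among subunit genes of the photosystems that come as near-equivalent copies, some pairs also shifted in their shares and others did not. PSAH1 and PSAH2 encode the subunit of photosystem I at which the mobile antenna docks. PSAH1 made up 37.9 ± 2.12% of their summed RPKM at 1 h, 63.3 ± 6.01% at 12 h and 79.3 ± 6.65% at 60 h in ABA seedlings, and 39.2 ± 0.636%, 61.6 ± 3.96% and 77.8 ± 3.61% in mock seedlings. PSAH2 had 72.7 and 41.5 RPKM at 60 h with ABA against 879 and 1272 RPKM at 1 h, and 83.2 and 51.5 RPKM in mock against 1063 and 1106 RPKM. PSAH1 had 214 and 217 RPKM at 60 h with ABA against 572 and 728 RPKM at 1 h, so the copy that was lower at 1 h was the higher at 60 h in every library. Of PSBO1 and PSBO2, which encode the manganese-stabilizing protein of the oxygen-evolving complex, PSBO1 made up 75.9 ± 0.566% at 1 h and 87.1 ± 0.99% at 60 h with ABA, and 76.3 ± 1.06% and 91.9 ± 1.98% in mock. PSAD1 and PSAD2, for the ferredoxin-docking subunit of photosystem I, kept their ratio: PSAD1 made up 66.1 ± 0.495% at 1 h and 67.5 ± 1.34% at 60 h with ABA, and 66.2 ± 1.2% at both times in mock, with an SD of 1.63 at 60 h.

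The remaining subunit genes fell within that range. PSAK, for an antenna-anchoring subunit of photosystem I, changed by -3.59 ± 0.27 with ABA and -3.41 ± 0.27 in mock on the log2 scale. PSAL, the most abundant PSA gene, which encodes the subunit next to PSAH, changed by -1.53 ± 0.19 and -1.25 ± 0.19. PSBQ1, for an extrinsic protein of the oxygen-evolving complex, changed by -3.34 ± 0.2 and -2.97 ± 0.2. PSBR, for a protein that helps bind that complex, changed by -1.11 ± 0.22 and -0.98 ± 0.22. All 12 PSA genes passed in both treatments, as did 9 of 9 PSB genes with ABA and 8 of 9 in mock.

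**Figure D3:**
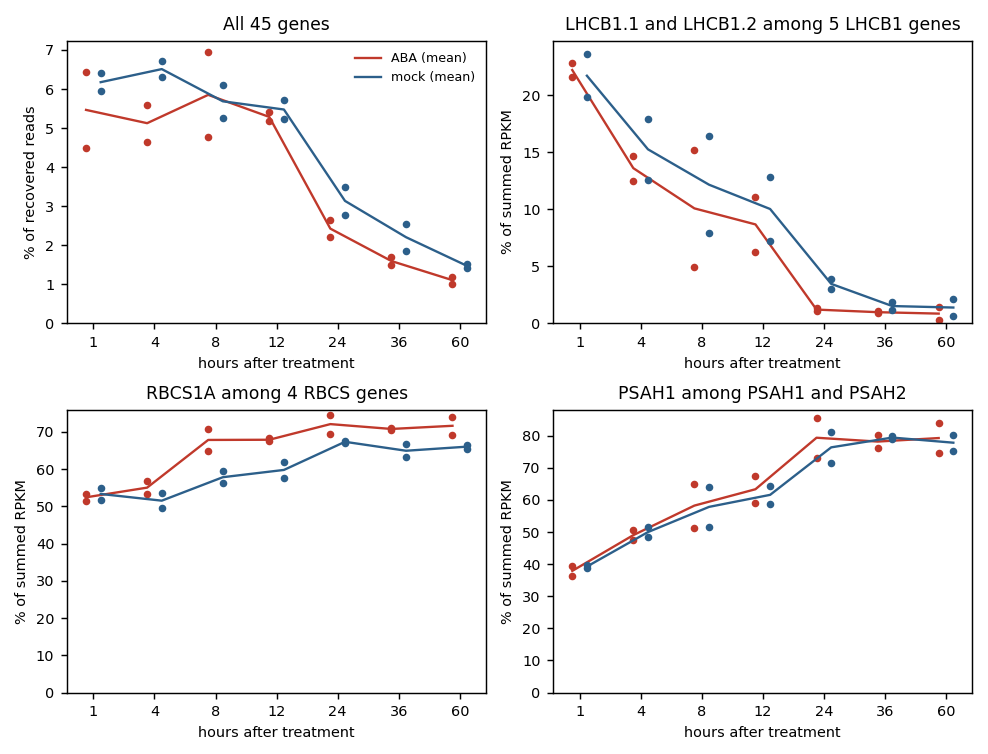
Upper left, share of all assigned reads taken by the 45 genes; the other panels, LHCB1.1 and LHCB1.2 within the 5 LHCB1 genes, RBCS1A within the 4 RBCS genes and PSAH1 within PSAH1 and PSAH2, as percent of summed RPKM. Dots are libraries and lines group means against hours after treatment, ABA in red and mock in blue; the RBCS1A share is higher with ABA from 8 h on, at 67.8% against 57.8% at 8 h.

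Genes of the Rubisco small subunit were lower with ABA, with the largest median differences at 24 and 36 h. In the direct test of an ABA effect differing between times, given below, 0 of the 4 passed, where 4.17% of all genes did. Averaged over the 7 times, 7 of 45 genes passed as lower in ABA than in mock seedlings and 0 as higher, where 18.1% and 21% of all genes were called lower and higher. With quantile normalization the counts were 13 lower and 0 higher, where 25.9% and 17.4% of all genes were called, so the members' lower share was near that over all genes under both scalings. All 4 RBCS genes were among the 7 called without it, with LHCB1.2 of the antenna and PSBP1 and PSBQ1 of the oxygen-evolving complex. The median mean effect of the 45 genes was -0.12, beside -0.01 over all genes. At single times 0 genes passed at 1, 4 and 8 h, 1 at 12 h, 3 at 24 h, 3 at 36 h and 1 at 60 h, all of them RBCS genes and all lower. Fitted on the 4 libraries of a time alone, the 24 h calls were RBCS1B, LHCB1.1 and LHCB1.2, and 0 genes passed at 36 h. Over all genes 0.393, 3.74, 3.57, 4.09, 3.88, 5.59 and 5.73% of genes were called lower and 1.7, 8.98, 7.92, 8.37, 6.64, 8.24 and 7.84% higher at these times. At an unadjusted p under 0.05, the counts at 1, 4 and 8 h were 0, 1 and 5. For the unadjusted p and the fits on 4 libraries the share over all genes was not counted, so these counts do not set the members apart. By the authors' deposited FDR, 0, 1, 1, 1, 4, 4 and 1 of the 45 genes were under 0.05 at these times, all lower, and the genes other than RBCS at 24 h and 36 h were LHCB1.2 alone. That FDR in the authors' deposited table called 0.459, 3.78, 3.78, 4.22, 4.14, 5.77 and 5.54% of all genes lower and 2.22, 8.88, 7.63, 8.27, 6.56, 7.88 and 7.75% higher.

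RBCS1B, a Rubisco small-subunit gene on chromosome 5 (AT5G38430, chr5:15383167-15385320, minus strand), differed most. At 1 h it had 468 and 560 RPKM in ABA libraries, against 589 and 586 RPKM in mock libraries. At 4 h it had 178 and 167 RPKM with ABA, against 400 and 368 RPKM in mock. At 8 h the values were 220 and 84.2 RPKM with ABA, against 388 and 244 RPKM in mock. Both ABA libraries lay below both mock libraries at each of these times, by little at 1 h and by more than 2-fold in the means at 4 h and 8 h. At 12 h RBCS1B had 64.6 and 59.4 RPKM with ABA, against 237 and 213 RPKM in mock. At 24 h it had 10.8 and 8.34 RPKM with ABA, against 54.4 and 53.9 RPKM in mock. Both ABA libraries again lay below both mock libraries. At 36 h it had 9.36 and 5.59 RPKM with ABA, against 22.4 and 53 RPKM in mock. At 60 h it had 3.9 and 2.07 RPKM with ABA, against 9.45 and 9.75 RPKM in mock. The gap was widest at 24 h, where the log2 difference was -2.4 ± 0.38 (SE), 5.26-fold lower, with an adjusted p of 0.000247 (limma). At 12 h it was -1.84 ± 0.38 (adjusted p = 0.00225), at 36 h -2.11 ± 0.38 (adjusted p = 0.000626) and at 60 h -1.45 ± 0.38 (adjusted p = 0.0139); the 60 h call was lost without ABA replicate 2 or either mock library (adjusted p from 0.0665 to 0.149). The differences at 4 h and 8 h, -1.15 ± 0.38 and -1.17 ± 0.38, missed the threshold with adjusted p of 0.0556 and 0.0558 and passed it with ABA and mock libraries of the same time and number blocked (0.0195 and 0.0193). On the 4 libraries of a time alone the adjusted p was 0.0636 at 36 h and 0.00339 at 4 h.

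RBCS2B (AT5G38420) and RBCS3B (AT5G38410), its neighbors on chromosome 5, were lower with ABA by less. RBCS2B had 2116 and 2395 RPKM with ABA, against 2600 and 2224 RPKM in mock, at 1 h. At 12 h it had 1198 and 1298 RPKM with ABA, against 2117 and 2188 RPKM in mock. The groups overlapped at 1 h and stood apart at 12 h. At 24 h it had 909 and 800 RPKM with ABA, against 2016 and 1364 RPKM in mock. At 36 h it had 800 and 411 RPKM with ABA, against 1480 and 1052 RPKM in mock. At 60 h it had 409 and 328 RPKM with ABA, against 670 and 576 RPKM in mock. Its log2 difference was -0.96 ± 0.29 at 24 h (adjusted p = 0.038) and -1.12 ± 0.29 at 36 h (adjusted p = 0.0112). RBCS3B had 1103 and 1320 RPKM with ABA, against 1992 and 1951 RPKM in mock, at 12 h. At 24 h it had 358 and 578 RPKM with ABA, against 836 and 990 RPKM in mock. At 36 h it had 321 and 343 RPKM with ABA, against 592 and 823 RPKM in mock. At 60 h it had 173 and 218 RPKM with ABA, against 332 and 348 RPKM in mock. Its log2 difference was -1 ± 0.27 at 24 h (adjusted p = 0.019) and -1.07 ± 0.27 at 36 h (adjusted p = 0.00916). The ABA libraries of RBCS3B were below its mock libraries at all 7 times, and those of RBCS2B at 6 of 7, with overlap at 1 h. At 24 h the calls of RBCS2B and RBCS3B were both lost without replicate 1 of either treatment (adjusted p from 0.0507 to 0.314), that of RBCS2B also without ABA replicate 2 (0.203) and that of RBCS3B without mock replicate 2 (0.141). At 36 h RBCS2B lost its call without ABA replicate 2 or mock replicate 1 (0.248 and 0.138), and RBCS3B without ABA replicate 1 or mock replicate 2 (0.0665 and 0.137). With the replicate block both were also called at 12 h and 60 h, RBCS2B with an adjusted p of 0.0137 and 0.0155 and RBCS3B with 0.0224 and 0.0109. On the 4 libraries of 24 h or 36 h alone both missed the threshold, RBCS2B with an adjusted p of 0.253 at 24 h and 0.212 at 36 h and RBCS3B with 0.219 and 0.0706.

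RBCS1A (AT1G67090), on chromosome 1, is the main small-subunit gene, with 4832 RPKM on average over the 28 libraries. At 8 h it had 7407 and 5931 RPKM with ABA, against 6148 and 6784 RPKM in mock, with overlapping groups. At 24 h it had 3754 and 3152 RPKM with ABA, against 5923 and 5000 RPKM in mock. At 36 h it had 2695 and 1858 RPKM with ABA, against 3594 and 3838 RPKM in mock, a log2 difference of -0.73 ± 0.27 that did not pass at that time (adjusted p = 0.0814; 0.0447 with the replicate block). Over the 7 times its mean difference was -0.35 ± 0.1 (adjusted p = 0.00985), beside -1.47 ± 0.14 for RBCS1B (adjusted p = 1.07e-07), -0.67 ± 0.11 for RBCS2B (adjusted p = 5.94e-05) and -0.66 ± 0.1 for RBCS3B (adjusted p = 3.1e-05). With quantile normalization the RBCS1A value was -0.25 (adjusted p = 0.0558). RBCS1A made up more of the family with ABA: 67.8 ± 4.1% at 8 h, 72 ± 3.61% at 24 h and 71.6 ± 3.39% at 60 h, against 57.8 ± 2.26%, 67.3 ± 0.283% and 66 ± 0.707% in mock (SD, n = 2). RBCS1B made up 0.144 ± 0.0403% at 60 h with ABA, against 0.337 ± 0.0339% in mock, and 4.8 ± 0.0707% against 4.92 ± 0.0283% at 1 h. Of the 50-base windows of RBCS1A, 1.48% occur in another RBCS transcript, and of RBCS1B, RBCS2B and RBCS3B 14, 21.4 and 18.3%, so part of the reads of the chromosome 5 genes could have been placed on the wrong copy.

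**Figure D4:**
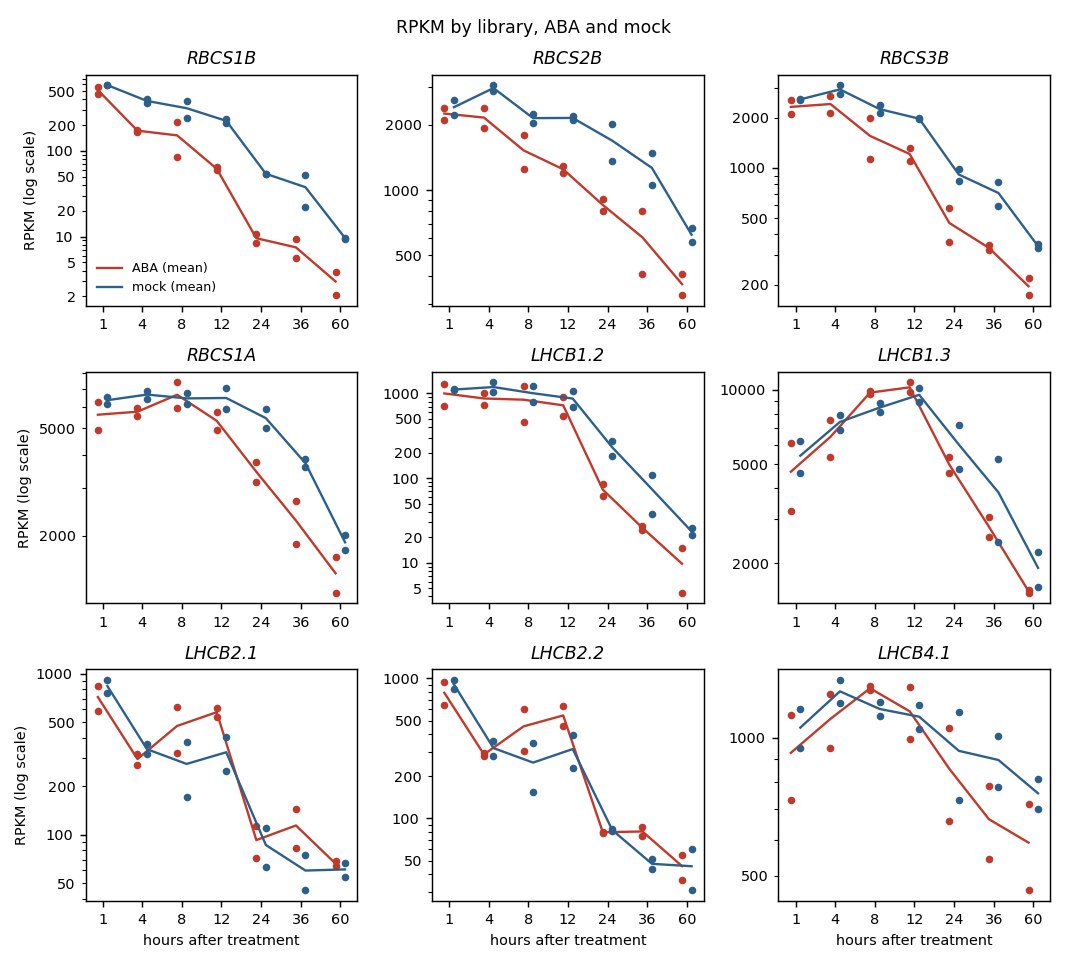
RPKM on log axes against hours after treatment for 9 genes, each dot a library and each line the mean of 2, with ABA in red, left of mock in blue. RBCS1B, RBCS2B and RBCS3B lie lower with ABA from 4 h on, LHCB1.2 separates from 24 h, and LHCB2.1 and LHCB2.2 lie higher with ABA at 8, 12 and 36 h.

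The sequences before the annotated starts of the RBCS genes are shown because 3 of them stand side by side and differed in size of effect. Each run gives the 250 bases before the gene's start in the RefSeq annotation of TAIR10.1, 5′ to 3′ on the gene's strand; capitals mark the I-box GATAAG, the G-box CACGTG and the CCAATC element, on either strand. The I-box and the G-box are known from light-responsive promoters, the G-box also from ABA-responsive ones.
RBCS1A (chr1:25049668-25049917, minus strand): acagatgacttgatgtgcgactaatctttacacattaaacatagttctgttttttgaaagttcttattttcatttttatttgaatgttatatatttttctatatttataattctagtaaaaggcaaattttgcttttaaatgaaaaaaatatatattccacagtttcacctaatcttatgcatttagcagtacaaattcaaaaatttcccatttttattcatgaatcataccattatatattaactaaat
RBCS1B (chr5:15385321-15385570, minus strand): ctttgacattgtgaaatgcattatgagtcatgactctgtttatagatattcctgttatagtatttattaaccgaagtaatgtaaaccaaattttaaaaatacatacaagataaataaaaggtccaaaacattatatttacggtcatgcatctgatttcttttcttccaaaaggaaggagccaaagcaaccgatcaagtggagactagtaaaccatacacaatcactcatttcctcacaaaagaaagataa
RBCS2B (chr5:15382072-15382321, minus strand): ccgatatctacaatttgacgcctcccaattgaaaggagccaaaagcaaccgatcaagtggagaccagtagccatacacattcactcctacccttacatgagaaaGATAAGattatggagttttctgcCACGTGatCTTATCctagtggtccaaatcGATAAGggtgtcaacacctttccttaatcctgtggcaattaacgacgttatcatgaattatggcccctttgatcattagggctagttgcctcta
RBCS3B (chr5:15378643-15378892, minus strand): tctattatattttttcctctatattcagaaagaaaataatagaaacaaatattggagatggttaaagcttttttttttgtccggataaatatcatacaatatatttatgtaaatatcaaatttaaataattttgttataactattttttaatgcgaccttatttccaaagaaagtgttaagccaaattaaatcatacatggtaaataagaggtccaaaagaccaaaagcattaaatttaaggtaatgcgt
RBCS2B held 3 I-boxes, beginning 146, 115 and 94 bases before the start, and a G-box beginning 123 bases before it. RBCS1A, RBCS1B and RBCS3B held none of the 3 motifs in these windows. The windows of the neighboring genes do not cover matching stretches. The last bases of the RBCS1B window, ending in gataa, resemble those that run into the first I-box of RBCS2B. The annotated start of RBCS1B cuts off what follows, so a motif missing from a window may lie past the start. Over all 45 genes the I-box was in 10 windows (22.2%), beside 12.7% of 18218 windows read for genes of the table. The G-box was in 9 (20%, beside 7.81%), and ACGTG, the core of the ABA-response element, which the G-box contains, in 17 (37.8%, beside 24.1%). CCAATC was in 11 (24.4%, beside 10.5%): 7 of 14 LHCB, 3 of 6 LHCA and 1 of 9 PSB windows, and 0 of the 4 RBCS and 12 PSA windows. AACCAA, searched as well, was in 20 (44.4%, beside 30.6%). Of the 45 windows 16 hold part of an exon of another gene, among them 4 of the 10 with an I-box, 4 of the 9 with a G-box, 5 of the 17 with ACGTG, 2 of the 11 with CCAATC and 6 of the 20 with AACCAA; the windows printed here hold none. The annotated starts may differ from those of the authors' gene models, and a match describes letters only.

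Among the LHCB genes LHCB1.2 was lower with ABA, and the LHCB2 genes had higher values. At 24 h LHCB1.2 had 61.6 and 84.4 RPKM with ABA, against 183 and 278 RPKM in mock. At 36 h it had 27.1 and 24.6 RPKM with ABA, against 37.9 and 110 RPKM in mock. At 60 h it had 15 and 4.44 RPKM with ABA, against 25.5 and 21.4 RPKM in mock. The groups did not overlap at 4, 24, 36 and 60 h. Its mean difference over the 7 times was -0.81 ± 0.2 on the log2 scale (adjusted p = 0.00365), and at single times it missed the threshold but passed with the replicate block, at 24 h (-1.63, adjusted p = 0.00816; 0.0625 without), 36 h (-1.3, 0.0223; 0.135 without) and 60 h (-1.39, 0.016; 0.105 without). The authors' deposited table gave LHCB1.2 an FDR of 0.0127 at 24 h and 0.0221 at 36 h. On the 4 libraries of 24 h alone LHCB1.2 and LHCB1.1 had an adjusted p of 0.0435 and 0.0368. LHCB1.1 at 24 h had 32.2 and 19.5 RPKM with ABA, against 82.1 and 73.9 RPKM in mock, and was called lower there with the block (adjusted p = 0.00098; 0.324 without).

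LHCB2.1 (AT2G05100) and LHCB2.2 (AT2G05070) encode the LHCII protein whose phosphorylation drives the antenna's move between photosystems. LHCB2.1 had 624 and 323 RPKM with ABA at 8 h, against 378 and 172 RPKM in mock. At 12 h it had 615 and 538 RPKM with ABA, against 403 and 247 RPKM in mock. At 36 h it had 83.1 and 145 RPKM with ABA, against 45.3 and 74.4 RPKM in mock. Within each replicate number the ABA library was the higher at these 3 times; the groups overlapped at 8 h and stood apart at 12 and 36 h. The log2 differences were 0.81, 0.86 and 0.91 with an SE of 0.4, and their adjusted p was 0.259, 0.199 and 0.169, or 0.00132, 0.000778 and 0.000515 with the replicate block. LHCB2.2 had differences of 0.89, 0.83 and 0.76 at these times, with adjusted p of 0.181, 0.2 and 0.25, or 0.000297, 0.000458 and 0.000834 with the block. At 1, 4, 24 and 60 h both genes lay within 0.24 of mock on the log2 scale. Averaged over the 7 times LHCB2.1 stood at 0.34 ± 0.15 (adjusted p = 0.0855; 0.000183 with the block) and LHCB2.2 at 0.3 ± 0.15 (adjusted p = 0.114; 0.000199 with the block). Of their 50-base windows 22.7 and 28.2% occur in the other gene.

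The windows before the annotated starts of these LHCB genes and of LHCB1.3 are shown for comparison, since LHCB1.2 and LHCB1.3 took different courses and LHCB2.1 and LHCB2.2 took the same course; build, direction and capitals are as above.
LHCB1.2 (chr1:10473503-10473752, minus strand): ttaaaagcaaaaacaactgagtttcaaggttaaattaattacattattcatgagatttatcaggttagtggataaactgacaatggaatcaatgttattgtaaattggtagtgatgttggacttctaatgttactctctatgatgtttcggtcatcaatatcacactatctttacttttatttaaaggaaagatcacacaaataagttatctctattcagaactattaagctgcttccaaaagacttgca
LHCB1.3 (chr1:10477635-10477884, plus strand): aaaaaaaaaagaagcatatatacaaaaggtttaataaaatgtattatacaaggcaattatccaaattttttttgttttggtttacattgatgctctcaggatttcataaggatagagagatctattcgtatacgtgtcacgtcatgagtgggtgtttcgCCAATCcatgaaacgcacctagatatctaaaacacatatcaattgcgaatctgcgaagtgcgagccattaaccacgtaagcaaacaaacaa
LHCB2.1 (chr2:1824481-1824730, minus strand): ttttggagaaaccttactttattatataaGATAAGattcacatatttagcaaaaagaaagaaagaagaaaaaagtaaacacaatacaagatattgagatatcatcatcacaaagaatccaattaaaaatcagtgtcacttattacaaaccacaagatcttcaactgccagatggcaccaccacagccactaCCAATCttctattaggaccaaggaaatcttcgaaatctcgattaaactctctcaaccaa
LHCB2.2 (chr2:1800473-1800722, minus strand): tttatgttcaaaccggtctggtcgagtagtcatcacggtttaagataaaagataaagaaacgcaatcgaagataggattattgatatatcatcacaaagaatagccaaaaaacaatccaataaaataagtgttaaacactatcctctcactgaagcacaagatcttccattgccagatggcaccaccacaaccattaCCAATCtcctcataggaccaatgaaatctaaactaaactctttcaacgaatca
CCAATC stood in the windows of LHCB1.3, LHCB2.1 and LHCB2.2, and LHCB2.1 also held an I-box beginning 221 bases before the start. LHCB1.2 held none of the 3 motifs in its window.

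The oxygen-evolving complex gave the other called genes. PSBQ1 had 87.9 and 101 RPKM with ABA at 36 h, against 116 and 173 RPKM in mock. At 60 h it had 51.3 and 59 RPKM with ABA, against 71.9 and 81.5 RPKM in mock. Its mean difference was -0.29 ± 0.08 on the log2 scale (adjusted p = 0.00627), and the groups did not overlap at 4, 12, 24, 36 and 60 h. PSBQ2, the other copy, stood at 0.08 ± 0.11 (adjusted p = 0.602), and PSBQ1 made up 30.4 ± 1.84% of the pair at 60 h with ABA, against 42.5 ± 1.48% in mock. PSBP1, which encodes the extrinsic protein beside PSBQ, had 285 and 404 RPKM with ABA at 36 h, against 464 and 700 RPKM in mock. Its mean difference was -0.3 ± 0.11 (adjusted p = 0.0405), a call that was lost without any 1 of 18 of the 28 libraries.

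The other members were closer to mock. Over the 7 times the mean effects of the 6 LHCA genes ran from -0.24 for LHCA1 to 0.1 for LHCA5. Those of the 12 PSA genes ran from -0.39 for PSAN to 0.08 for PSAO. Of these 18 genes 0 passed, where 18.1% of all genes were called lower and 21% higher. With quantile normalization 2 LHCA and 5 PSA genes passed as lower, where 25.9% of all genes were called lower and 17.4% higher. At an unadjusted p under 0.05 there were 0 LHCA genes and 1 PSA gene, again without a share over all genes to set beside them. PSBO2, a minor copy of the manganese-stabilizing protein, stood at 0.2 ± 0.09 (adjusted p = 0.0998; 0.0153 with the block). It had 523 and 376 RPKM with ABA at 8 h, against 360 and 227 RPKM in mock. PSAD2, the lowest PSA gene, stood at 0.01 ± 0.08 with ABA against mock (adjusted p = 0.961).

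**Figure D5:**
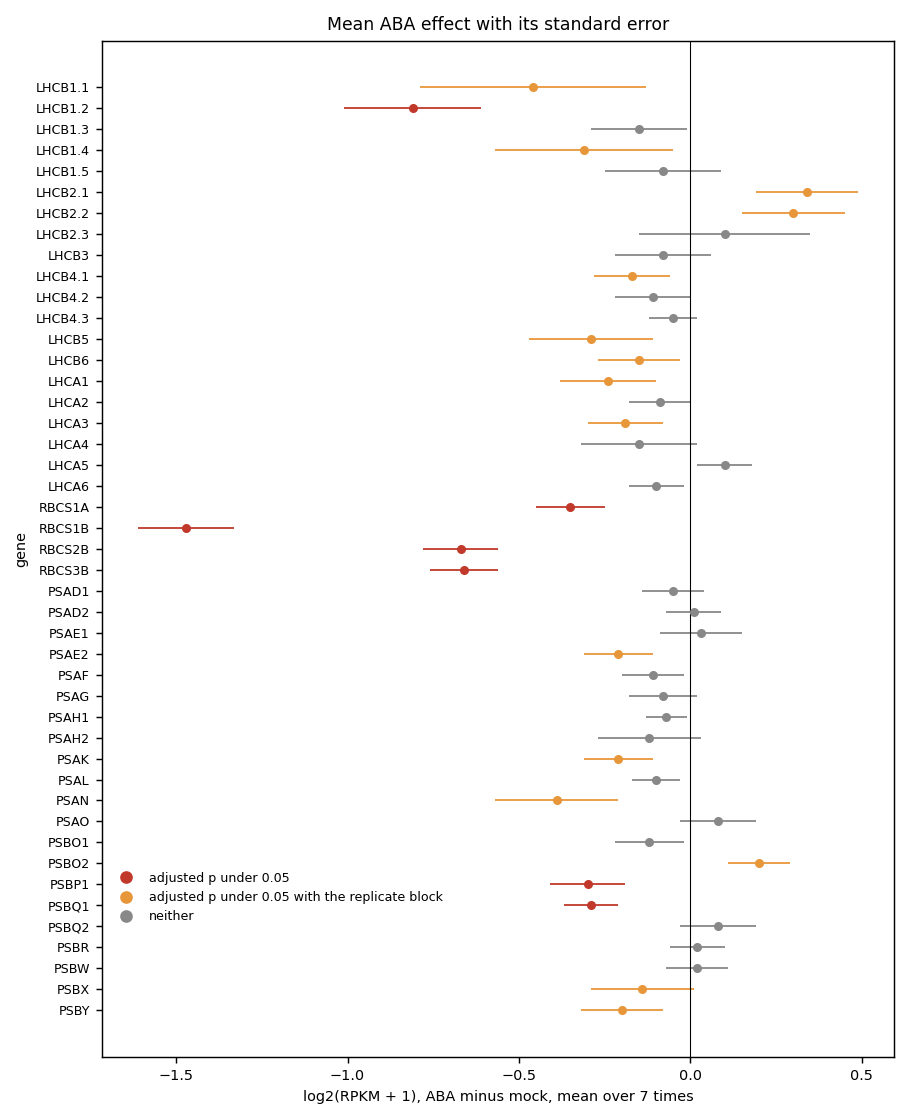
Difference in log2(RPKM + 1) between ABA and mock seedlings, averaged over 7 times, for each of the 45 genes (dots) with its standard error (bars). Red dots passed the test, orange dots passed only with the replicate block and grey dots passed neither; RBCS1B is lowest at -1.47, and LHCB2.1 is highest at 0.34.

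With ABA and mock libraries of the same time and replicate number blocked, more of the 45 genes passed. The mean effect was then called lower for 19 genes and higher for 3, where 28.9% and 29.1% of all genes were. By family these were 6 lower and 2 higher of 14 LHCB, 2 lower of 6 LHCA, 4 lower of 4 RBCS, 3 lower of 12 PSA, and 4 lower and 1 higher of 9 PSB genes. At 4, 8, 12, 24, 36 and 60 h the block gave 1, 1, 3, 11, 14 and 14 genes lower, where 10.5, 9.46, 11.8, 10.8, 13.8 and 13.7% of all genes were called lower. It gave 1, 7, 3, 0, 2 and 0 genes higher, where 16.8, 15.5, 16.6, 13.6, 16 and 14.9% were. At 1 h it gave 0 in either direction, where 1.03% of all genes were called lower and 3.89% higher. At 8 h the higher genes were LHCB2.1, LHCB2.2, LHCB2.3, LHCB4.3, LHCA5, PSBO2 and PSBW, and at 12 h they were LHCB2.1, LHCB2.2 and LHCB2.3. The count of higher genes was near the share over all genes at 8 h and below it at 12 h, so neither sets the members apart. With quantile normalization the 8 h difference of PSBW was 0.02, beside 0.36 without it. Those of the other genes named at 8 h were then between 0.26 and 0.76. Of the genes lower from 24 h on, PSAN, for a plastocyanin-side subunit of photosystem I, was called at 24, 36 and 60 h (-0.84, -0.83 and -0.87, adjusted p = 0.00591, 0.00508 and 0.00402). PSAN had 74.5 and 140 RPKM with ABA at 24 h, against 130 and 260 RPKM in mock, lower with ABA in both replicate numbers though the groups overlapped. LHCB1.4, of the major antenna, was called at 36 and 60 h, and LHCB5, for the minor antenna protein CP26, at 60 h (-0.75, adjusted p = 0.00749). LHCB1.4 had 45.1 and 166 RPKM with ABA at 60 h, against 173 and 347 RPKM in mock.

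The sign of the set's median moved with time. The median log2 difference of the 45 genes between ABA and mock was -0.13, -0.19, 0.18, 0.06, -0.24, -0.32 and -0.29 at 1, 4, 8, 12, 24, 36 and 60 h, beside medians over all genes between -0.02 and 0.01. The 4 RBCS genes had medians of -0.17, -0.38, -0.55, -0.75, -0.98, -1.1 and -0.78 at these times. The positive medians at 8 h and 12 h were -0.08 and -0.1 with quantile normalization. Whether the ABA effect of a gene differed between times was tested directly, and 0 of 45 genes passed, where 4.17% of all genes did; RBCS1B and LHCB4.3 had an unadjusted p under 0.05 (0.0147 and 0.0181). With the replicate block 7 of 45 passed, where 14.2% of all genes did. When the 4 h effect was subtracted from the 60 h effect, 0 genes passed in either direction, where 1.73% of all genes were called lower and 0.732% higher. With the block 1 passed, where 7.4% were called lower and 4.1% higher: LHCB4.3 had -0.79 ± 0.26 (adjusted p = 0.158; unadjusted p = 0.00799; adjusted p = 0.00497 with the block).

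Genes that work with these proteins fell with time as well, and some differed between ABA and mock. At 60 h against 1 h, 32% of all genes were called lower and 31.9% higher with ABA, and 31.1% and 30.3% in mock. In the mean ABA effect 18.1% of all genes were called lower and 21% higher, or 28.9% and 29.1% with the replicate block. All 15 listed chlorophyll-synthesis genes, all 8 further photosystem genes and all 11 Calvin-cycle genes were lower at 60 h than at 1 h in both treatments, and 8 of 9 electron-transport and ATP-synthase genes were (9 with ABA when the replicate number was a further term). For the mean ABA effect, 3 chlorophyll-synthesis genes passed as lower and 1 as higher, which was CAO, the chlorophyll b enzyme (0.39 ± 0.1, adjusted p = 0.00576); CHLM, a methyltransferase of the pathway, stood at -0.35 ± 0.07 (adjusted p = 0.000359). Of the Calvin-cycle genes 6 passed as lower and 1 as higher: FBA1, a plastid aldolase, stood at -0.45 ± 0.08 (adjusted p = 0.000307), and CP12-2, a regulator of the cycle, at 0.5 ± 0.07 (adjusted p = 1.08e-05). Among the 8 further photosystem genes 1 passed as lower, PSB27, for an assembly factor of photosystem II (-0.23 ± 0.06, adjusted p = 0.00392), and 1 as higher, LHCB7 (0.19 ± 0.06, adjusted p = 0.024); PSB28 had -0.24 ± 0.11 (adjusted p = 0.0839). Of the electron-transport genes 2 passed, both lower: PETE2, for plastocyanin (-0.35 ± 0.1, adjusted p = 0.00788), and FNR2, for ferredoxin-NADP reductase (-0.25 ± 0.08, adjusted p = 0.018). With the block the counts were 6 lower and 2 higher of 15 chlorophyll-synthesis genes, 9 lower and 1 higher of 11 Calvin-cycle genes, 5 lower and 1 higher of 8 further photosystem genes, and 3 lower of 9 electron-transport genes.

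Of 18 listed regulators 17 could be measured. With ABA 3 were higher and 2 lower in the mean effect, where 21% and 18.1% of all genes were. The largest effects were those of SIG5, a plastid sigma factor (0.67 ± 0.11, adjusted p = 0.00011), and PIF3, a phytochrome-interacting factor that represses light-responsive genes in the dark (0.47 ± 0.06, adjusted p = 4.05e-06). GLK1 and GLK2, activators of photosynthesis genes, stood at -0.01 ± 0.07 (adjusted p = 0.891) and -0.1 ± 0.07 (adjusted p = 0.341); both were named after their values were seen. With the block 5 regulators were lower and 4 higher, where 28.9% and 29.1% of all genes were. Between 1 h and 60 h 8 regulators fell and 2 rose with ABA, where 32% and 31.9% of all genes did. In mock 9 fell and 2 rose, where 31.1% and 30.3% did. Values of 7 plastid-encoded partners, among them the Rubisco large subunit and the reaction-centre proteins, did not follow the nuclear set in these poly(A) libraries. How well such libraries measure plastid transcripts was not tested. At 60 h against 1 h 0 of the 7 passed as lower, while 2 passed as higher with ABA and 1 in mock. Their median log2 changes were 2.16 and 1.28. With the replicate number as a further term 6 passed as higher with ABA and 3 in mock, where 36.1% and 34.3% of all genes did. Their sums differed widely between replicates of a group, for example 364 and 2376 RPKM at 12 h with ABA and 339 and 1967 RPKM in mock, in libraries made from poly(A) RNA. For the ABA effect 0 of the 7 passed at any time; PSBD and PSBC, core proteins of photosystem II, stood at -0.36 ± 0.51 (adjusted p = 0.626) and -0.28 ± 0.43 (adjusted p = 0.654). The 6 shoot markers summed to between 418 and 722 RPKM in ABA libraries, against 317 to 534 RPKM in mock libraries; CER1, a wax-synthesis gene, was the marker that differed most (2.02 ± 0.18, adjusted p = 2.38e-08), and in all 2 of the 6 passed as higher and 1 as lower in the mean effect (2 and 3 with the block). The 6 root markers summed to between 1219 and 5011 RPKM with ABA and between 960 and 4176 RPKM in mock. PYK10 made up most of this sum in every library, for example 4810 RPKM in ABA 1 h replicate 1. Of the 6, SHR passed as lower in the mean effect (-0.26 ± 0.09, adjusted p = 0.0335), and 3 genes did with the block. At 60 h 3 were lower than at 1 h in each treatment. With the replicate number as a further term 4 were lower with ABA, where 34.9% of all genes were. In mock 3 were then lower and 2 higher, where 34.3% of all genes were called in each direction. Of the 5 light markers 0 passed in the mean effect, and 1 as higher with the block. The part of tissue makeup in the results was not tested.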

How the data were processed

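Poly(A) RNA of whole seedlings was sequenced with stranded libraries, per the labels' protocols. The submitters' processing notes name HTSeq 0.5.4, edgeR 3.6.2 and the build TAIR10; the aligner, the annotation and the strand setting are not given in the sources used here. The authors deposited RPKM per gene and library, with a log2 fold change and an FDR-adjusted p-value for ABA against mock at each time, per the file headers; the RPKM values of ABA 1 h replicate 1 share a column with the gene identifiers and were separated. All per-sample columns were used. RPKM steps gave whole reads for 100% of values within 0.01 reads, from which depth was read; 1 read was worth 0.0229 to 0.041 RPKM at a gene of median length.

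RPKM + 1 was taken to log2 and fitted with limma 3.58.1 (R 4.3.3, intensity trend) with 14 groups and no further term, 14 residual degrees of freedom, and no filter on low values; the script was tested on simulated data. The median standard error over all genes was 0.19 at a single time and 0.07 for the mean of 7 times. Many of the members described had larger standard errors, which are given with their log2 differences. Replicates of the same number deviated together between ABA and mock at every time (r across genes between 0.429 and 0.736). The block on time and number (7 residual degrees of freedom) is therefore given with its counts, and with its p for the genes the text turns on. Replicate numbers also went together between times. Against 1 h of the same treatment r was between 0.117 and 0.561 in mock and between -0.0379 and 0.421 with ABA. The pairing is seen in the data and not stated in the labels. Alternatives were quantile and median-ratio scaling, a pseudocount of 0.1, a minimum mean of 1 RPKM, the 4 libraries of a time alone, each library left out and the authors' FDR. The genes named by rule were the highest and lowest of each family, the 3 largest mean increases and decreases, and the 2 smallest p for an effect differing between times; other members described were chosen after their values were seen. From each other list the 2 largest mean effects were named. The members and lists were chosen with earlier results of these data known. Sequences and positions came from the TAIR10.1 genome and RefSeq annotation, which matched 18221 of 18310 genes and all 45 members; 17 members overlap another annotated gene. Figures and tables used Python 3.11.15, pandas 2.3.3, numpy 2.4.6 and matplotlib 3.10.9.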

Additional observations from a re-analysis of the deposited data

Results flagged for a closer look

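With ABA and mock libraries of the same time and number blocked, the ABA effect of 7 of the 45 genes differed between the 7 times (limma F test, Benjamini-Hochberg over 18310 genes). Of all genes 14.2% passed this test, so the members' share was near that over all genes. The adjusted p was 0.0426 for LHCB1.1, 0.0396 for LHCB1.4, 0.0044 for LHCB2.1, 0.00236 for LHCB2.2, 0.00486 for LHCB4.3, 0.0491 for PSAN and 0.0451 for PSBP1. LHCB2.1 and LHCB2.2 were near mock at 1, 4, 24 and 60 h and higher with ABA at 8, 12 and 36 h. LHCB4.3 had 10.7 and 8.91 RPKM with ABA at 8 h, against 8.3 and 5.69 RPKM in mock, and 2.81 and 3.48 RPKM with ABA at 60 h, against 4.36 and 4.52 RPKM in mock. PSBP1 and PSAN differed at 24, 36 and 60 h, LHCB1.1 at 24 and 60 h, and LHCB1.4 at 36 and 60 h. Without the block 0 of the 7 passed this test. RBCS1B, with a difference at 6 of the 7 times under the block, had an adjusted p of 0.0536 for a difference between times.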

How the results depend on the processing

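Leaving out each of the 28 libraries in turn, with a lone library assumed to vary like the others, gave 0 genes called at 1 h, 0 to 1 at 4 h, 0 to 2 at 8 h, 1 to 2 at 12 h, 1 to 4 at 24 h, 2 to 4 at 36 h and 0 to 2 at 60 h. It gave 6 to 9 for the mean effect, 0 to 1 for an effect differing between times, 0 for 60 h minus 4 h, 41 to 45 for ABA over time and 38 to 42 for mock over time. The 24 h count was 1 without replicate 1 of either treatment. The 60 h count, RBCS1B, was 0 without ABA replicate 2 or either mock library. The replicate block gave 2, 8, 6, 11, 16 and 14 genes from 4 h to 60 h, 22 for the mean effect, 1 for 60 h minus 4 h and 7 for an effect differing between times; over time it gave 45 with ABA and 43 in mock. Quantile normalization gave 1 at 4 h, 2 at 8 h and 13 for the mean effect, and RBCS1A was then not called. Median-ratio scaling gave 2 at 60 h. The 4 libraries of a time alone gave 1 at 4 h, 0 at 36 h and, at 24 h, 3 that include RBCS1B but not RBCS2B or RBCS3B. The authors' FDR gave 1 at 4 h and 1 at 8 h. No named value changed sign under any alternative run while called. The cause of these shifts was not tested. With 2 libraries a group, a log2 difference at a single time had a standard error near 0.19 at the median gene and 0.86 for LHCB1.1, whose difference of -1.60 at 24 h missed the threshold at this replication.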
